A study of Oncorhynchus mykiss with 6 samples.

Results

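The subunits of the nuclear RNA polymerases were described here in dorsal skin of rainbow trout (Oncorhynchus mykiss), comparing wild-type fish with fish of a yellow mutant. A locus was a member if its deposited pathway annotation named RNA polymerase, or if its product name was that of a DNA-directed RNA polymerase I, II or III. This gave 57 members among 41818 loci: 47 were found by pathway, 53 by product name and 43 by both. Of the 57 loci, 50 could be assigned to 29 distinct subunits, and 7 carried a polymerase annotation without a clear subunit. The study sequenced mRNA of 6 libraries at an age of 45 days, 3 labelled wild-type and 3 labelled yellow mutant. The labels give no strain, mutated gene or treatment, and do not say whether the libraries came from separate fish or from pools. The p-values thus reflect the variation among these 6 libraries alone, and that variation may be technical.

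RNA polymerase I makes the large ribosomal RNA precursor, RNA polymerase II makes messenger RNA, and RNA polymerase III makes transfer RNA, 5S ribosomal RNA and other short RNAs. Each enzyme is built around a pair of large catalytic subunits, named RPA1 and RPA2, RPB1 and RPB2, and RPC1 and RPC2. Some small subunits (RPABC1 to RPABC5) are common to all the enzymes, a pair (RPAC1 and RPAC2) is common to polymerases I and III, and the rest belong to 1 enzyme. Salmonid fishes went through an additional genome duplication, so that many trout genes are present as several copies.

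The assigned loci comprised 6 loci of 5 subunits specific to polymerase I, 3 loci of 2 subunits common to polymerases I and III, and 8 loci of 5 subunits common to all. There were 11 loci of 7 subunits specific to polymerase II and 22 loci of 10 subunits specific to polymerase III. Several copies were listed for 17 of the 29 subunits, and 12 had 1 locus. Levels are given as CPM, read counts scaled to a common library total, here after adjustment of the totals with TMM factors. Total counts ranged from 15059101 to 19031878 per library. The groups were compared with edgeR's quasi-likelihood test over all 30691 loci that passed the filter on low counts, with Benjamini-Hochberg adjustment over all of them and a threshold of 0.05. "Rose" and "fell" are used only for loci past that threshold, in the yellow mutant relative to the wild type.

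Of the 57 members, 51 passed the filter. The other 6 had at most 57 counts over all libraries and were not tested. Of the 51, 24 rose, 3 fell and 24 did not pass. Over all loci tested, 21.7% rose and 23.1% fell, so that a call in either direction was made for 44.8%. The median log2 fold change was 0.39 over the 51 members and -0.0029 over all loci tested. All 24 loci that rose belonged to the assigned subunits, of which 47 loci were tested, and 1 assigned locus fell, a copy of POLR3GL. In each of the 24 the 3 yellow mutant values lay above the 3 wild-type values, a separation that picking loci past the threshold favours. Counting tested loci with or without a call, 29 of the 51 members had the yellow mutant entirely above and 6 entirely below the wild type. Of all loci tested, 26.8% and 27.6% did. Leaving aside 1 locus of polymerase II, RPB3, the loci described below that rose did so by 1.22-fold (RPB11) to 2.19-fold (a copy of RPC5).

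By enzyme, 3 of 6 polymerase I loci rose (median log2 fold change 0.60) and none of them passed in the other direction. Among the loci common to all enzymes, 5 of 8 rose (median 0.39), and 1 of 3 loci common to polymerases I and III did. For polymerase II, 5 of 11 rose (median 0.17). For polymerase III, 10 of 19 tested loci rose and 1 fell (median 0.46). The number that rose depended on the scaling of the libraries: with library totals in place of TMM factors, 34 members rose, the median log2 fold change over all loci shifted from -0.0029 to 0.20, and calls over all loci became 10805 higher and 4544 lower in place of 6658 and 7079.

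**Figure D1:**
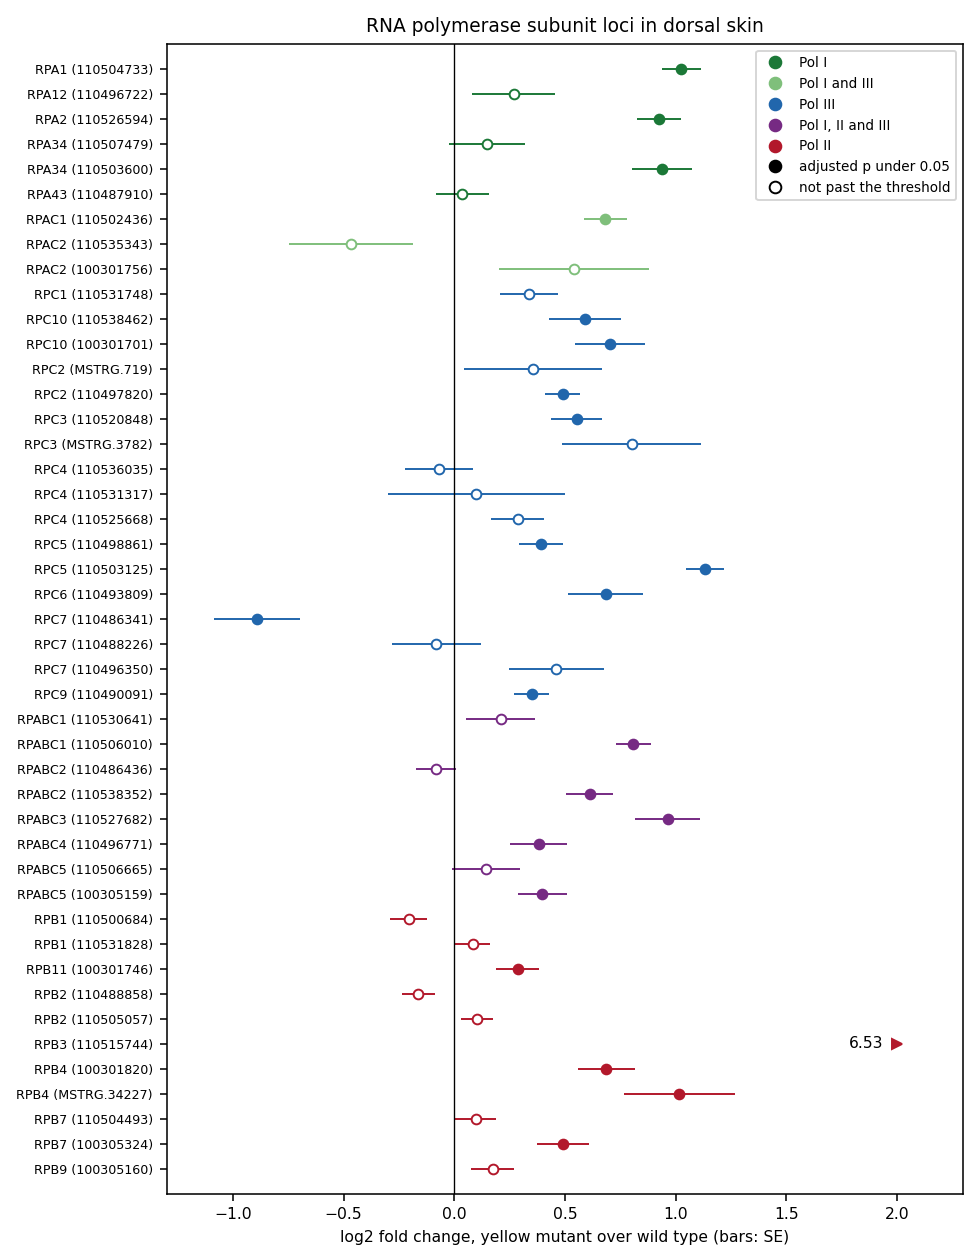
Log2 fold change (yellow mutant over wild type, x axis) with its standard error for 45 tested loci that were assigned to a subunit, coloured by enzyme and labelled by subunit and locus number. Filled points pass the adjusted p threshold of 0.05. The RPB3 point, at 6.53, is drawn at the edge of the axis without its error. The 22 filled points to the right of 0 are spread over all the enzymes, and the single one to the left is a copy of RPC7.

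The plot of log2 fold changes places polymerase I at the top, with its catalytic subunits among the clearest changes. POLR1A (ncbi_110504733), which encodes the largest subunit RPA1, was measured at 17.8, 18.7 and 15.8 CPM in wild-type replicates 1, 2 and 3 and at 34.6, 36.4 and 35.6 CPM in the yellow mutant. Every yellow mutant library was well above the highest wild-type library, and POLR1A rose by a log2 fold change of 1.03 (SE 0.09, n = 3 per group, edgeR adjusted p = 8.59e-07), or 2.04-fold. POLR1B (ncbi_110526594), encoding the partner catalytic subunit RPA2, stood at 12.8, 12 and 10.7 CPM in the wild type and at 20.8, 23.4 and 23.1 CPM in the yellow mutant. These groups did not overlap either, and POLR1B rose by 0.92 (SE 0.10, edgeR adjusted p = 7.08e-06).

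RPA34, which with its partner RPA49 forms a subcomplex of polymerase I related to the general factor TFIIF, was annotated at a pair of loci. One of them (ncbi_110503600) was at 5.07, 5.29 and 4.36 CPM in the wild type and 9.54, 9.83 and 8.80 CPM in the yellow mutant, a log2 fold change of 0.94 (SE 0.13, edgeR adjusted p = 8.88e-05). The other (ncbi_110507479) had overlapping groups, at 5.02 ± 0.836 and 5.61 ± 0.731 CPM (SD, n = 3), and a log2 fold change of 0.15 (adjusted p = 0.516 in the same edgeR fit). RPA12 (annotated ZNRD1), which takes part in RNA cleavage, and RPA43 (annotated twistnb), which contacts the initiation factor RRN3, did not pass, with log2 fold changes of 0.27 and 0.04 and overlapping groups. No member was annotated as RPA49, which was not analysed here.

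RPAC1 and RPAC2 form the assembly platform shared by polymerases I and III. Polr1c (ncbi_110502436), encoding RPAC1, was at 15.9, 13.5 and 13.5 CPM in the wild type and 24.5, 22.7 and 21.8 CPM in the yellow mutant. The groups were apart and Polr1c rose by 0.68 (SE 0.10, edgeR adjusted p = 8.07e-05). Neither of the RPAC2 loci, both annotated POLR1D, passed: the wild-type values of the first (ncbi_100301756) ranged from 1.01 to 3.51 CPM, and the log2 fold changes of the loci were 0.54 and -0.47. Wild-type replicate 2 held the highest value of the first locus, and without that library its log2 fold change was 1.1 (adjusted p = 0.0134 in the edgeR fit of the remaining 5 libraries).

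Among the subunits common to all enzymes, Polr2e (ncbi_110506010), which encodes RPABC1 at the jaw of the enzymes, had the highest level per length (37.6 FPKM in the wild type, copies summed). Its main locus was at 37.6, 37.8 and 39.5 CPM in the wild type and at 70.9, 62.4 and 68.4 CPM in the yellow mutant. The groups did not overlap, and the log2 fold change was 0.81 (SE 0.08, edgeR adjusted p = 2.77e-06). POLR2H (ncbi_110527682), encoding RPABC3, was at 6.74, 6.37 and 5.93 CPM in the wild type and 10.8, 11.3 and 15 CPM in the yellow mutant, with yellow mutant replicate 3 the highest. It rose by 0.96 (SE 0.15, edgeR adjusted p = 0.000134).

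RPABC2, encoded by POLR2F, was listed at a pair of loci. The locus with fewer counts (ncbi_110538352) was at 15.6, 16.8 and 14.1 CPM in the wild type and 21.9, 22.3 and 26.8 CPM in the yellow mutant, and rose by 0.61 (SE 0.11, edgeR adjusted p = 0.000397). The one with more counts (ncbi_110486436) was at 34.1 ± 2.02 and 32.2 ± 3.11 CPM (SD, n = 3) with overlapping groups. RPABC4 (Polr2k, 0.38) and 1 of the RPABC5 loci (POLR2L, ncbi_100305159, 0.40), small zinc-binding subunits, also rose. Their calls were close to the threshold. Without wild-type replicate 2, wild-type replicate 3 or yellow mutant replicate 3, Polr2k had log2 fold changes of 0.33, 0.29 and 0.32 and did not pass in the edgeR fit (adjusted p = 0.0957, 0.116 and 0.0984), nor did it with DESeq2 on all libraries (0.39, adjusted p = 0.0519). The POLR2L locus was at 0.33 without wild-type replicate 2 (edgeR adjusted p = 0.0548).

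None of the 4 loci of the catalytic subunits of polymerase II passed in either direction. Polr2a, encoding RPB1, was listed at a pair of loci. The first (ncbi_110500684) was at 41.0, 43.5 and 39.6 CPM in the wild type and 35.2, 39.0 and 33.3 CPM in the yellow mutant, and the second (ncbi_110531828) at 29.3, 25.8 and 28.0 CPM and at 28.6, 30.2 and 29.3 CPM. The yellow mutant values lay just below the wild-type values at the first locus and overlapped them at the second, and the log2 fold changes were -0.21 (SE 0.08, edgeR adjusted p = 0.0585) and 0.08 (SE 0.08, edgeR adjusted p = 0.429). The first locus was close to the threshold: it passed as lower without yellow mutant replicate 2 (-0.26, edgeR adjusted p = 0.0308) and with the replicate number as a block (-0.21, edgeR adjusted p = 0.0408). The second locus passed as higher with library totals (0.28, edgeR adjusted p = 0.0126), where the median over all loci was 0.20. It also passed as higher with limma on log2(FPKM + 0.1) and log2(FPKM + 1) (limma adjusted p = 0.0309 and 0.0314).

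POLR2B, encoding RPB2, was likewise listed at a pair of loci. Its first locus (ncbi_110488858) was at 46.8, 45.0 and 42.8 CPM in the wild type and 39.7, 40.7 and 39.9 CPM in the yellow mutant. Its second locus (ncbi_110505057) was at 48.1, 45.8 and 44.3 CPM and at 50.3, 49.2 and 49.0 CPM. The groups were apart at both loci, in opposite directions, but the log2 fold changes of -0.16 (SE 0.07, edgeR adjusted p = 0.0893) and 0.10 (SE 0.07, edgeR adjusted p = 0.263) did not pass. The opposite directions depended on the scaling: with library totals the first locus was at 0.036, and the second at 0.30, where it passed (edgeR adjusted p = 0.00436).

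The largest change of any member was at POLR2C (ncbi_110515744), which encodes RPB3, the polymerase II counterpart of RPAC1. It was at 0, 0.501 and 0 CPM in the wild type and 17.3, 10.6 and 15.5 CPM in the yellow mutant. All 7 wild-type counts fell in replicate 2, against 819 counts in the yellow mutant. The ratio of scaled counts was 96.6, with an exact 95% binomial interval (Clopper-Pearson) of 46.7 to 241 that covers counting error only. The fitted log2 fold change was 6.53 (SE 0.46, edgeR adjusted p = 1.95e-07), and 5.92 and 5.94 without wild-type replicates 1 and 3. Without replicate 2 no wild-type count was left, and a chosen floor of 3 counts for the wild type put the ratio at 159. That value depends on the floor and leaves out the library that held all wild-type counts. It is therefore not a lower bound for the groups as a whole.

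Per length, in the authors' FPKM, RPB3 stood apart from its partners in the wild type but less so in the yellow mutant. It was at 0.11 ± 0.191 FPKM (SD, n = 3) in the wild type, where the other 6 polymerase II subunits, copies summed, had mean levels between 10.8 (RPB4) and 34.5 FPKM (RPB7). In the yellow mutant RPB3 was at 10.4 ± 2.44 FPKM, against 14.8 (RPB1) to 48.1 FPKM (RPB7). RPB3 had no second locus among the members. The sources used here do not say how the authors treated reads shared between copies, and reads counted elsewhere cannot be told apart from a difference in the RNA of this gene.

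RPB4 and RPB7 form the stalk of polymerase II. The main RPB4 locus (Polr2d, ncbi_100301820) was at 10.1, 11.9 and 9.08 CPM in the wild type and 19, 14.6 and 16.3 CPM in the yellow mutant, a rise of 0.69 (SE 0.13, edgeR adjusted p = 0.000669). A minor RPB4 locus (MSTRG.34227) rose as well, from 1.25, 1.5 and 1.27 CPM to 2.43, 3.23 and 2.46 CPM (1.02, SE 0.25, edgeR adjusted p = 0.00492). One of the RPB7 loci rose (polr2g, ncbi_100305324, 0.49) and the other did not pass (0.10). RPB11 (POLR2J), the partner of RPB3, rose by 0.29, close to the threshold. Without wild-type replicate 2, wild-type replicate 3, yellow mutant replicate 1 or yellow mutant replicate 3 it had log2 fold changes of 0.20, 0.31, 0.24 and 0.28 and did not pass in the edgeR fit (adjusted p = 0.152, 0.0569, 0.101 and 0.0681), nor did it with DESeq2 on all libraries (0.29, adjusted p = 0.0626). RPB9 (POLR2I, 0.17, edgeR adjusted p = 0.158) did not pass, although its groups were apart. It passed as higher with library totals (0.37, edgeR adjusted p = 0.00602) and with limma on log2(FPKM + 0.1) and log2(FPKM + 1) (limma adjusted p = 0.00464 and 0.00456). The RPB7 locus that did not pass (ncbi_110504493) also passed as higher with library totals (0.29, edgeR adjusted p = 0.0181) and with both limma fits.

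For polymerase III, POLR3B (ncbi_110497820), the main locus of the catalytic subunit RPC2, was at 29.6, 29.7 and 26.0 CPM in the wild type and 40.1, 40.2 and 39.5 CPM in the yellow mutant. The groups were clearly apart, with a log2 fold change of 0.49 (SE 0.08, edgeR adjusted p = 0.000252). A minor RPC2 locus (MSTRG.719) was at 0.954, 1.14 and 1.39 CPM and at 1.73, 1.08 and 1.69 CPM, with overlap and no call. POLR3A (ncbi_110531748), encoding RPC1, was at 10.1, 7.08 and 8.29 CPM in the wild type and 10.9, 10.6 and 10.9 CPM in the yellow mutant. Its groups did not overlap, but the wild-type libraries were spread, and the log2 fold change of 0.34 (SE 0.13, edgeR adjusted p = 0.0501) just missed the threshold. POLR3A passed without wild-type replicate 1 (0.49, adjusted p = 0.00975 in the edgeR fit of the remaining libraries). The replicate block (0.35, edgeR adjusted p = 0.0382) and library totals (0.54, edgeR adjusted p = 0.00472) also brought it past. So did limma on log2(FPKM + 0.1) and log2(FPKM + 1) (limma adjusted p = 0.0138 and 0.0134). The limma fits took the authors' FPKM with no TMM factors. Of their calls over all loci 70.8% were higher, near the 70.4% with library totals and against 48.5% in the main fit. With DESeq2 size factors in edgeR, and with the other filters, POLR3A was barely past (0.34 each, edgeR adjusted p = 0.0492 to 0.0499). It did not pass with any other library left out, and was at 0.23 without wild-type replicate 2 (edgeR adjusted p = 0.198). With the DESeq2 Wald test on all libraries it did not pass either (0.34, adjusted p = 0.103).

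RPC4 and RPC5 form the TFIIF-like pair of polymerase III. Polr3e (ncbi_110503125), a copy of RPC5, was at 11.6, 11.6 and 12.3 CPM in the wild type and 26.2, 25.1 and 26.8 CPM in the yellow mutant. Every yellow mutant library was more than double the highest wild-type library, and this copy had the smallest adjusted p among the polymerase III loci (log2 fold change 1.13, SE 0.09, edgeR adjusted p = 3.89e-07). The other RPC5 copy (ncbi_110498861) started from a like level, 12.3 ± 0.582 CPM (SD, n = 3), and reached 16.2 ± 1.29 CPM (0.39, edgeR adjusted p = 0.00597). None of the RPC4 loci passed, the 3 tested ones having log2 fold changes of 0.29, 0.10 and -0.07. The first of these (POLR3D, ncbi_110525668, edgeR adjusted p = 0.0657) passed as higher without wild-type replicate 1 (0.40, adjusted p = 0.0187), with the replicate block (0.29, adjusted p = 0.0387) and with library totals (0.48, adjusted p = 0.00498).

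RPC3, RPC6 and RPC7 form the trimer that polymerase III uses to open promoters. The main RPC3 locus (polr3c, ncbi_110520848) was at 8.53, 7.51 and 9.38 CPM in the wild type and 11.7, 13.3 and 12.4 CPM in the yellow mutant, and rose by 0.55 (SE 0.12, edgeR adjusted p = 0.00173). POLR3F (ncbi_110493809), encoding RPC6, rose from 3.34, 3.36 and 3.21 CPM to 5.95, 4.75 and 5.27 CPM (0.68, SE 0.17, edgeR adjusted p = 0.00507). In both genes all yellow mutant libraries lay above all wild-type libraries. A minor RPC3 locus (MSTRG.3782) did not pass, with a log2 fold change of 0.80 (edgeR adjusted p = 0.0534). It passed as higher in some alternatives, among them the replicate block (0.87, edgeR adjusted p = 0.0247) and the fit without wild-type replicate 1 (1.15, edgeR adjusted p = 0.0164). With any other library left out it did not pass.

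RPC7, the third member of the trimer, exists in mammals in a pair of forms, POLR3G and POLR3GL, and the trout table listed 3 loci as POLR3GL and 1 as POLR3G. One POLR3GL locus (ncbi_110486341) was at 5.31, 5.01 and 4.06 CPM in the wild type and 2.25, 2.84 and 2.61 CPM in the yellow mutant. It was the only assigned locus that fell, with a log2 fold change of -0.89 (SE 0.19, edgeR adjusted p = 0.00211), or 1.86-fold. A second POLR3GL locus (ncbi_110496350) was at 3.26 ± 0.909 and 4.55 ± 0.519 CPM (SD, n = 3). Its groups were apart, with a log2 fold change of 0.46 (edgeR adjusted p = 0.0961). It passed as higher with library totals (0.66, edgeR adjusted p = 0.02) and with limma on log2(FPKM + 0.1) and log2(FPKM + 1), but not with any library left out. In the fits where it passed, calls over all loci leaned to higher, as given for POLR3A. The last (ncbi_110488226) had overlapping groups (-0.08). POLR3G was at 0.504 ± 0.0645 and 0.426 ± 0.312 CPM and was too low to be tested.

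RPC9 (Crcp), of the stalk of polymerase III, rose by 0.35. RPC10, which takes part in termination and in restarting the enzyme, rose at both of its Polr3k loci. The first (ncbi_100301701) went from 3.34, 4.01 and 3.57 CPM to 5.84, 6.12 and 5.78 CPM, and the second (ncbi_110538462) from 6.38, 4.58 and 5.99 CPM to 8.67, 7.19 and 9.83 CPM. Their log2 fold changes were 0.70 (SE 0.16, edgeR adjusted p = 0.0026) and 0.59 (SE 0.16, edgeR adjusted p = 0.00957).

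Of the 7 loci without a clear subunit, 4 were tested: 2 fell and 2 did not pass. MSTRG.39012, whose product name is that of a polymerase II subunit 1-like protein but whose symbol is cnfn-b, a cornifelin name, was at 9.84, 11.5 and 8.41 CPM in the wild type and 1.68, 1.27 and 1.79 CPM in the yellow mutant. It fell by 2.65 on the log2 scale (SE 0.19, edgeR adjusted p = 2.28e-07). The locus with the symbol CCDC129 (ncbi_110535508), a coiled-coil gene listed only by its pathway annotation, was at 5.61, 5.15 and 6.72 CPM and at 2.43, 3.13 and 3.38 CPM, and fell by 0.96 (SE 0.19, edgeR adjusted p = 0.000949). Their symbols are not those of polymerase subunits, and they were left out of the comparisons by enzyme. Of those that did not pass, MSTRG.26427 had a log2 fold change of 0.60 (edgeR adjusted p = 0.0994) and passed as higher in 6 alternatives, among them library totals (0.80, adjusted p = 0.0277), the replicate block (0.61, adjusted p = 0.0408), and the fits without wild-type replicate 3 (0.95, adjusted p = 0.0207) or yellow mutant replicate 1 (0.77, adjusted p = 0.0472).

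The counts of all copies of a subunit were then summed, so that the split of reads between copies no longer mattered. Of the 29 subunits, 19 rose, none fell and 10 did not pass in edgeR's quasi-likelihood test over 15728 products whose loci were summed by product name. Over all products, 24.5% rose and 25.3% fell, 49.8% in either direction. No subunit was lower at an unadjusted p under 0.05 either, and 3 had a log2 fold change below 0 (RPB1, RPB2 and RPC7). By enzyme, 3 of 5 polymerase I subunits rose, 1 of 2 common to polymerases I and III, 4 of 5 common to all, 4 of 7 of polymerase II and 7 of 10 of polymerase III. The summed level of all polymerase I loci was 58.4 ± 2.77 CPM in the wild type and 93.7 ± 1.76 CPM in the yellow mutant (SD, n = 3). That of all polymerase III loci was 153 ± 8.48 and 214 ± 0.136 CPM, and that of all polymerase II loci 243 ± 7.39 and 274 ± 8.75 CPM. Of the polymerase II level, the RPB3 locus alone held 0.167 CPM in the wild type and 14.5 CPM in the yellow mutant. The limit on shared reads given above for RPB3 holds here too.

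**Figure D2:**
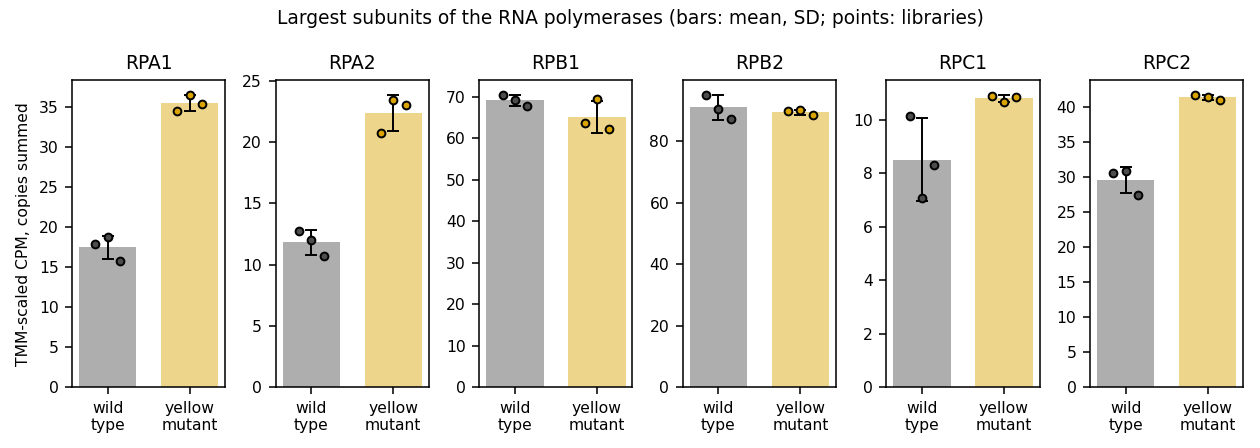
TMM-scaled CPM (y axis, from 0, its own scale in each panel) of the largest subunits of each polymerase, copies summed, in 3 wild-type and 3 yellow mutant libraries. Points are libraries, bars are means and error bars are SD. RPA1, RPA2, RPC1 and RPC2 are higher in every yellow mutant library, and the groups overlap for RPB1 and RPB2.

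Levels of different subunits can be compared only per length, here as mean FPKM with copies summed. In the wild type the polymerase I subunits lay between 2.81 (RPA2) and 7.19 FPKM (RPA43) and the polymerase III subunits between 2.66 (RPC6) and 11.1 FPKM (RPC10). The subunits common to all enzymes ranged from 8.64 (RPABC3) to 37.6 FPKM (RPABC1). This range lay above that of polymerase I, overlapped that of polymerase III, and was close to that of the polymerase II subunits other than RPB3. In the yellow mutant the polymerase I subunits lay between 6.11 (RPA2) and 10.5 FPKM (RPA34), and those of polymerase III between 3.94 (RPC1) and 19.6 FPKM (RPC10). The catalytic pair of polymerase I therefore stood below its smaller partners in both groups.

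The plot of the largest subunits sets the catalytic subunits of the enzymes side by side. With copies summed, RPA1, RPA2 and RPC2 rose, and RPC1, RPB1 and RPB2 did not pass. RPC1 had a log2 fold change of 0.34 (edgeR adjusted p = 0.0523). RPC1 passed with the replicate block (0.35, edgeR adjusted p = 0.041), with library totals (0.54, edgeR adjusted p = 0.00512) and without wild-type replicate 1 (0.48, edgeR adjusted p = 0.0103). It did not pass with any other library left out. RPB1 was at 69.1 ± 1.33 and 65.1 ± 3.78 CPM and RPB2 at 90.9 ± 3.92 and 89.4 ± 0.832 CPM (SD, n = 3), with log2 fold changes of -0.09 and -0.02. With library totals in place of TMM factors these became 0.12 and 0.18, and that of RPB2 then passed (edgeR adjusted p = 0.0318). Ratios of counts within a library do not depend on the scaling, so the subunits were also compared in that way.

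The ratio of RPA1 to RPB1 counts was 0.254, 0.270 and 0.233 in the wild type and 0.542, 0.526 and 0.568 in the yellow mutant, 2.16-fold higher. The ratio of RPA2 to RPB2 was 0.135, 0.132 and 0.123 and then 0.231, 0.260 and 0.260, 1.93-fold higher. For polymerase III, RPC1 over RPB1 was 0.144, 0.102 and 0.123 and then 0.171, 0.153 and 0.174 (1.36-fold), and RPC2 over RPB2 was 0.322, 0.340 and 0.315 and then 0.464, 0.459 and 0.463 (1.42-fold). All 4 ratios were higher in each yellow mutant library than in any wild-type library. How often other ratios separate the groups was not computed. Of single loci tested, 26.8% had the yellow mutant entirely above the wild type, and RPA1, RPA2 and RPC2 had already risen by themselves. The two-sided exact permutation test gave p = 0.1 for each and p = 0.1 after adjustment over the 4 ratios, which is the smallest value that 3 against 3 libraries allow.

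**Figure D3:**
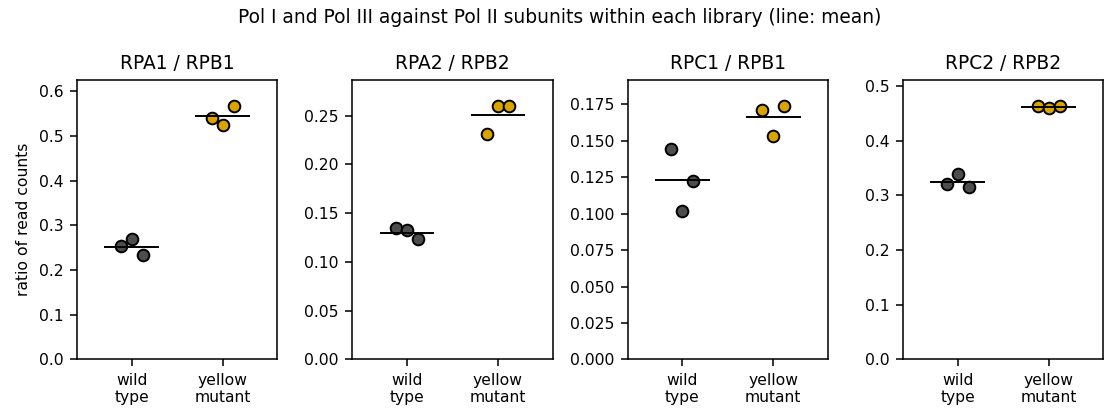
Ratio of read counts (y axis, from 0) of polymerase I or III catalytic subunits to their polymerase II counterparts within each library, copies summed. Points are the 3 wild-type and 3 yellow mutant libraries and lines are means. In all 4 panels the yellow mutant libraries lie above the wild-type libraries, from 0.526 to 0.568 against 0.233 to 0.270 for RPA1 over RPB1.

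Copies of a subunit did not always change together. Of the 17 subunits with several loci, all tested copies rose in 4 (among them RPB4, RPC5 and RPC10), some rose and none fell in 7, none passed in 4 (RPAC2, RPB1, RPB2 and RPC4) and a copy fell in 1 (RPC7). RPC6 had a single tested copy. A copy that passed beside one that did not does not by itself show that they differ, so each locus was tested against the change of its subunit as a whole, with edgeR's test for differential exon usage with loci in place of exons. Of 34 loci with another tested copy, 6 in 4 subunits differed past the adjusted threshold, and 9 did at an unadjusted p under 0.05. Over all loci tested in this way, 18.0% passed, so that the members' share was near the background. The count was 3 without wild-type replicate 2, 2 without yellow mutant replicate 1 and 3 without yellow mutant replicate 3. The share of all loci that passed the copy test in those fits is not given here. In the test between groups, calls over all loci went from 13737 to 11674, 12383 and 12130 in the same fits.

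The 4 subunits were RPABC1, RPABC2, RPC5 and RPC7. For RPC5 the copies were at parity in the wild type, where ncbi_110503125 took 48.8%, 49.5% and 48.8% of the counts, and this copy took 61.9%, 58.9% and 64.2% in the yellow mutant (adjusted p = 0.0356 and 0.00953 for the copies in edgeR's copy test). For RPABC2 the share of ncbi_110538352 went from 31.3% ± 1.02 to 42.4% ± 0.652 (SD, n = 3; edgeR copy test adjusted p = 0.00539). For RPABC1 the minor copy ncbi_110530641 went from 12.4% ± 1.24 to 8.60% ± 0.553 (edgeR copy test adjusted p = 0.0184).

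Among the 3 POLR3GL loci of RPC7, the order of the shares changed. The POLR3GL locus ncbi_110486341 held the largest mean share in the wild type, 39.5% ± 7.44 (SD, n = 3), and 23.2% ± 2.01 in the yellow mutant (edgeR copy test adjusted p = 0.00961). The locus ncbi_110496350 went the other way, from 26.3% ± 4.64 to 41.2% ± 5.59 (edgeR copy test adjusted p = 0.0291). With copies summed, RPC7 had a log2 fold change of -0.16 (edgeR adjusted p = 0.291).

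**Figure D4:**
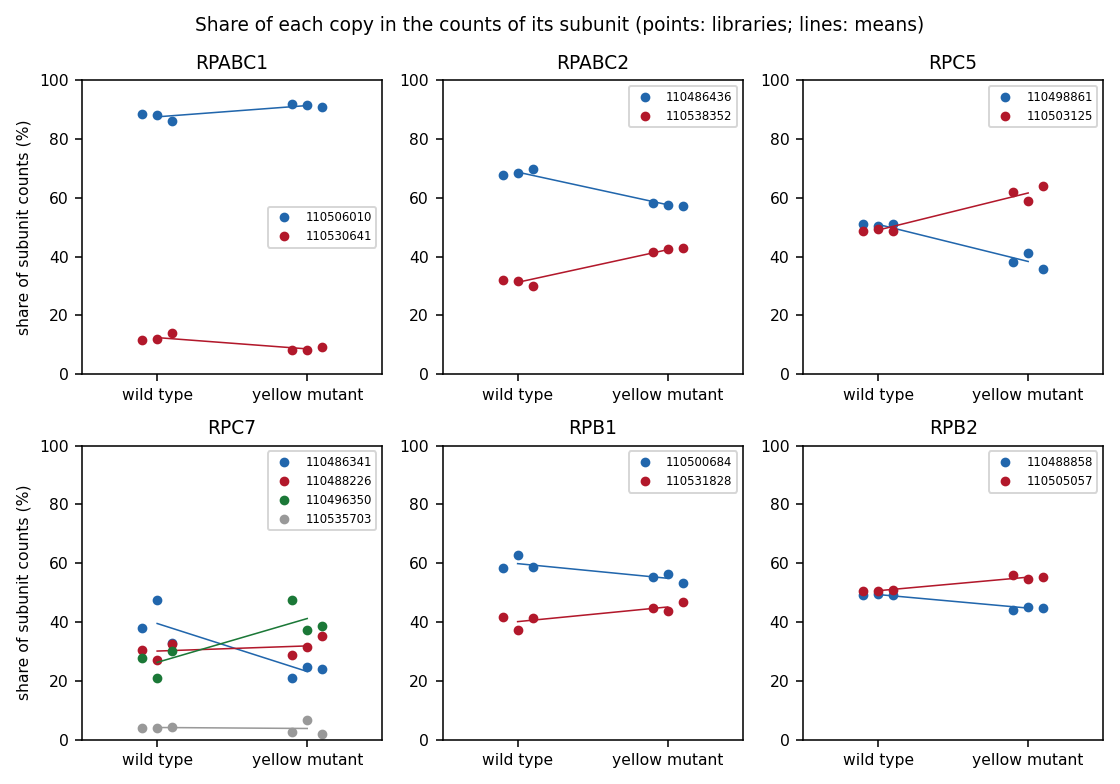
Share of each locus (y axis, percent) in the summed counts of its subunit, for the 4 subunits with a differing copy and for RPB1 and RPB2. Points are the 3 libraries of each group, lines join the group means, and the legend gives locus numbers. The RPC5 copies are near 50% each in the wild type and apart in the yellow mutant, and the order of the POLR3GL copies of RPC7 is exchanged.

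Genes that work with the polymerases were taken from lists of initiation, elongation and assembly factors. The counts of each list stand against 21.7% of all loci tested that rose and 23.1% that fell. With library totals in place of TMM factors, 10805 of the 30691 loci tested were higher and 4544 lower, in place of 6658 and 7079. The list counts given with library totals stand against those numbers. With a library left out, 5602 to 6015 of all loci were higher and 6072 to 6582 lower. List counts with a library left out stand against these ranges. In the list of factors that assemble and import the enzymes, 10 of 24 tested loci rose and 1 fell (median log2 fold change 0.28). In this list 19 rose with library totals in place of TMM factors, and 9 to 11 with a library left out. The ATPases RUVBL1 and RUVBL2, part of the R2TP chaperone complex that assembles polymerases, had the smallest adjusted p: ruvbl1 (ncbi_110494300) went from 29.0 ± 1.07 to 68.5 ± 0.671 CPM (SD, n = 3; log2 fold change 1.24, edgeR adjusted p = 4.44e-08) and ruvbl2 (ncbi_110534261) from 30.0 ± 2.22 to 60.3 ± 2.71 CPM (1.0, edgeR adjusted p = 6.14e-07). A second ruvbl1 locus rose by 0.41. Of the mitochondrial transcription genes, 4 of 6 rose and 1 fell. Polrmt (ncbi_110521417), the single-subunit mitochondrial polymerase, rose by 0.79, and by 0.29 at its second locus (ncbi_110524270). That second locus did not pass without wild-type replicate 1 or 2, without yellow mutant replicate 1 or 3, or with DESeq2. In each of those fits 3 of the 6 loci rose. The elongation factor of this polymerase, tefm, rose by 1.0, and its second locus at 0.52 did not pass.

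For polymerase I, 4 of 13 initiation factor loci rose and 3 fell (median 0.27), or 7 and 2 with library totals. RRN3 (ncbi_110486712), which makes polymerase I competent for initiation, rose from 15.2 ± 0.337 to 25.8 ± 1.30 CPM (SD, n = 3; 0.76, edgeR adjusted p = 1.09e-05). The other RRN3 locus (ncbi_110538665) was at -0.16 and did not pass. The termination factor Ttf1 rose by 0.69 at ncbi_110490383, and its other locus did not pass (0.27). Of 5 tested loci of UBTF, which coats active ribosomal RNA genes, 1 rose and 3 fell. These UBTF loci were singled out after their values were seen.

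For polymerase III, 9 of 22 loci rose and 4 fell (median 0.25), or 13 and 2 with library totals. With a library left out, 5 to 8 rose. The 4 that fell in the main fit were the 4 loci of MAF1, a repressor of polymerase III known from yeast and mammals. MAF1 (ncbi_110489999) was at 11.9, 9.16 and 10.8 CPM in the wild type and 4.22, 4.84 and 5.07 CPM in the yellow mutant, and fell by 1.18 on the log2 scale (SE 0.14, edgeR adjusted p = 2.12e-05). The locus ncbi_110494155 fell by 0.74 (SE 0.10, edgeR adjusted p = 3.99e-05). The remaining ones, given here after their values were seen, fell by 0.43 and 0.34 on the log2 scale. With library totals in place of TMM factors all 4 stayed below 0, but the last pair did not pass, so that 2 loci fell.

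For polymerase II, 14 of 50 loci of the general transcription factors rose and 3 fell (median 0.16), or 25 and 1 with library totals. With a library left out, 10 to 14 of them rose. The smallest adjusted p belonged to a locus of taf8, a TFIID subunit (ncbi_110492048, -1.27), among those that fell and to a locus of gtf2f1, a TFIIF subunit (ncbi_110538725, 1.44), among those that rose. Neither of their second copies passed (-0.14 for taf8 and 0.14 for gtf2f1). Of the Mediator loci, which link activators to polymerase II, 18 of 60 rose and 7 fell (median 0.10), or 27 and 3 with library totals. With a library left out, 14 to 18 Mediator loci rose. Of the kinase module of Mediator, med12 was at -0.67 (ncbi_110505195) and, without passing, at -0.17 at its second locus, and cdk8 rose at both loci (0.81 and 0.48). Of the elongation factors and the kinases and phosphatases of the tail of RPB1, 12 of 59 rose and 15 fell (median -0.09). These counts were near the shares of all loci tested, 21.7% and 23.1%. The phosphatase ssu72 rose at both loci, by 0.70 and 0.39, and the elongation factor TCEA3 fell by 0.93. With library totals the last list had 18 higher and 7 lower loci and a median of 0.11, against a median of 0.20 over all loci. With a library left out it had 10 to 12 higher and 11 to 14 lower loci.

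**Figure D5:**
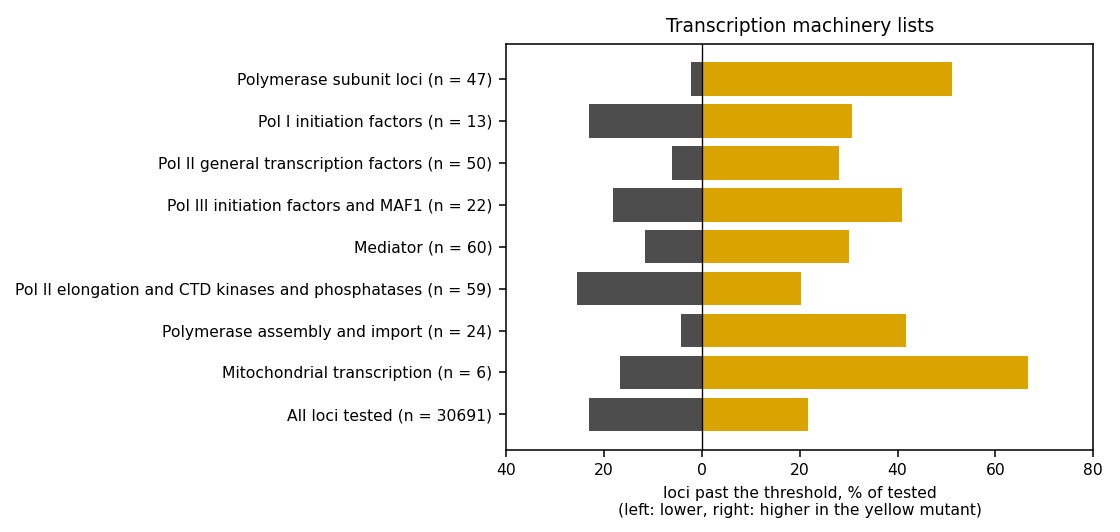
Percentage of tested loci past the adjusted p threshold of 0.05 (x axis), lower in the yellow mutant to the left and higher to the right, for the polymerase subunit loci, the lists of other transcription genes and all loci tested. The number tested stands beside each name. The subunit loci leave out the members without a clear subunit, a restriction chosen after seeing the data. They have 51.1% higher, against 21.7% of all loci. Over all 51 tested members the share is 47.1%.

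The plot of these lists sets the subunit loci beside the background. Marker genes of skin cell types differed between the groups as well, and their counts stand against the same shares, 21.7% and 23.1%. Of the epidermal marker loci (keratin and junction genes), 36 of 54 fell and 2 rose, and their summed level was 83344 to 87835 CPM in the wild type and 33708 to 37382 CPM in the yellow mutant. Of the pigment cell loci, 14 of 21 rose and 1 fell (summed level 557 to 644 and 1189 to 1393 CPM). Of the loci of dividing cells, 7 of 14 rose and 7 fell (summed level 880 to 995 and 929 to 1072 CPM), of the fibroblast and scale loci 2 of 18 rose and 6 fell, and of the muscle loci 6 of 26 rose and 5 fell. The muscle shares were near those of all loci tested. Of the leukocyte loci 4 of 10 fell, and of the erythrocyte loci 5 of 16. None of the marker genes found in the table was at 0 or under 1 CPM in all libraries. With library totals, 10805 of all 30691 loci tested were higher and 4544 lower. In that fit, 8 epidermal loci rose and 29 fell, 17 pigment cell loci rose and 1 fell, and 5 fibroblast and scale loci rose and 1 fell. Of the muscle loci 8 rose and 4 fell, and 1 rose and 2 fell in each of the leukocyte and erythrocyte lists. The part of these differences in the polymerase results was not tested. In such bulk samples, more cells of a type and more RNA per cell cannot be told apart.

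In the authors' deposited table, 25 members had an FDR under 0.05, 22 of them with a log2 fold change above 0 and 3 below. Over all 41818 loci of the authors' deposited table, 26.5% had such an FDR, 12.5% with a log2 fold change above 0 and 14.0% below. All 25 were also past the threshold of the edgeR test, with the same sign.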

How the data were processed

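Total RNA of dorsal skin was extracted with Trizol and sequenced as Illumina libraries, per the labels' protocols. The deposited table holds raw read counts and the authors' FPKM per locus and library, and also the authors' mean FPKM, log2 fold change, p-value and FDR, per the file headers. TopHat2 2.1.1 and Bowtie2 2.2.8 are named in the submitters' processing notes, without their settings. The sources used here give neither the counting tool, its treatment of shared reads and its strand use nor the genome build, so no coordinates are printed. Of the member identifiers, 51 matched the RefSeq gene table (USDA_OmykA_1.1), which was used for names and neighbours only.

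Libraries were assigned to wild type or yellow mutant from the labelled phenotype. Counts were fitted with edgeR 4.0.16 (R 4.3.3) over the whole table: filterByExpr, TMM, glmQLFit and glmQLFTest, with Benjamini-Hochberg adjustment over all loci tested (30691 of 39799 with a count). The SE was the size of the log2 fold change divided by the square root of F. The same test was run on counts summed by product name, and copies were compared with diffSpliceDGE over 23211 loci. Total counts of 15059101 to 19031878 per library set the counting precision. Values in every library are given for the largest subunits, for each member past the threshold whose log2 fold change was 0.5 or more in size, and for members counted in only 1 phenotype. Of the last kind, ncbi_110537370, an untested locus without a clear subunit, had no wild-type count. Its yellow mutant libraries had 1, 0 and 2 counts. One subunit is counted in the totals but not reported here by itself. From each list the loci with the smallest adjusted p are named. The members and lists were chosen with earlier results of these data known. Alternatives were other scalings and filters, DESeq2 1.42.0, limma 3.58.1 on log2(FPKM + 0.1) and log2(FPKM + 1), a replicate block, each library left out and narrower member rules. Permutation tests used scipy 1.17.1. Scripts were tested on simulated data.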

Additional observations from a re-analysis of the deposited data

How the results depend on the processing

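The number of members that rose was 24, between 22 and 27 with each library left out, 34 with library totals and with both limma fits, and 22 to 28 under the other settings. The number that fell was 3 to 4, but 2 among members by pathway alone, 2 by product name alone, and 1 among loci annotated as a subunit, a restriction chosen after seeing the data. With copies summed, 15 to 20 subunits rose with a library left out and 24 with library totals, and none fell. Copies that differed numbered 2 to 4 with a library left out, against 6. For summed products and for copies, the shares over the whole table are given for the main fit only. Their counts under alternatives thus have no background beside them. The share of calls over all loci that were higher was 48.5%, 70.4% with library totals and 70.8% with both limma fits. With a library left out, 5602 to 6015 of all loci were higher and 6072 to 6582 lower. Of 713 values of single loci under alternatives, 638 kept their direction and side of the threshold, 10 no longer passed, 47 newly passed and 18 changed sign. None of the loci that changed sign had passed. With library totals and limma on log2(FPKM + 0.1) and log2(FPKM + 1), the first RPB2 locus (ncbi_110488858) turned to 0.036, 0.036 and 0.033, RPABC2 ncbi_110486436 to 0.12, 0.11 and 0.11, RPC4 ncbi_110536035 to 0.13, 0.14 and 0.11, and RPC7 ncbi_110488226 to 0.12, 0.13 and 0.093. With a library left out, RPC4 ncbi_110536035 ranged from -0.21 to 0.11 and ncbi_110531317 from -0.15 to 0.30, RPC7 ncbi_110488226 from -0.23 to 0.033, RPA43 (ncbi_110487910) from -0.079 to 0.15, and with copies summed RPA43 from -0.083 to 0.15, RPAC2 from -0.093 to 0.36 and RPB2 from -0.056 to 0.0074. Summed RPB1, RPB2 and RPC7 were at 0.12, 0.18 and 0.045 with library totals. The cause was not tested. The pseudocount of 1 brought POLR2C to 3.35, MSTRG.39012 to -1.95, CCDC129 (ncbi_110535508) to -0.35 and POLR3GL ncbi_110486341 to -0.46. Summed RPABC4, RPABC5, RPB7 and RPB11 did not pass in 3, 3, 3 and 4 of the fits that left out a library. Same-numbered libraries of the groups correlated in their deviations from the group means at 0.080, 0.014 and 0.056, and each of the 6 libraries correlated best with its own number, a hint from the data and not from the design. For number 2 the margin was small. Wild-type replicate 2 correlated at 0.0074 with yellow mutant replicate 3, and yellow mutant replicate 2 at 0.0072 with wild-type replicate 3. With the replicate number as a block, 28 members rose and 4 fell (the fourth was the first RPB1 locus, ncbi_110500684), 20 summed subunits rose and 6 copies differed. Over all loci, 6698 were higher and 7170 lower with the block.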

Other observations

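Some polymerase loci lie beside genes of other functions in the RefSeq gene table, and the neighbours did not always change with them. Both POLR2F loci have a SOX10 locus next to them, a transcription factor gene of pigment cells. The SOX10 locus beside POLR2F ncbi_110538352 rose from 12.5 ± 1.31 to 32.2 ± 1.22 CPM (SD, n = 3; log2 fold change 1.37, edgeR adjusted p = 1.58e-07), and the one beside POLR2F ncbi_110486436 from 9.21 ± 0.615 to 20.9 ± 1.76 CPM (1.18, edgeR adjusted p = 1.26e-06). POLR2F rose at the first locus (0.61) and did not pass at the second (-0.08). All 3 loci annotated POLR3GL have a locus annotated TXNIP, a regulator of glucose uptake and redox state, next to them. TXNIP fell at all 3, by 0.79, 1.65 and 0.77 on the log2 scale beside ncbi_110486341, ncbi_110496350 and ncbi_110488226, whereas POLR3GL had log2 fold changes of -0.89, 0.46 and -0.08. The neighbours of POLR2C, coq9 and wwp2, fell by 0.29 and 0.49. Other neighbours went with the member: SNRNP25 rose by 0.85 and 0.72 beside the Polr3k loci ncbi_100301701 and ncbi_110538462, and ptcd3 by 0.59 beside POLR1A. Of 74 tested neighbours of members, 12 rose and 19 fell, against 21.7% and 23.1% of all loci. The 74 include the member POLR2I, which lies next to the PGLYRP1 locus.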
